A study of Mus musculus with 2 samples.

Results

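The genes described here are 10 of the 33696 genes in the matrices: Hspa5, Hsp90b1, Calr, Canx, Pdia4, Xbp1, Atf4, Ddit3, Herpud1 and Sdf2l1. They were listed by name as chaperones of the endoplasmic reticulum (ER) and genes of the unfolded protein response, not by their values, and each was read from the gene symbols of the matrices. Earlier results of these data were known when the genes were chosen. Each was followed across 10 cell classes in 2 droplet-based single-cell RNA libraries, in which transcripts are counted from their 3' ends as unique molecular identifiers (UMIs). The KO library came from Alb-Cre Bicd2fl/fl mice, in which Cre under the albumin promoter deletes Bicd2, a cargo adaptor of the dynein motor, in hepatocytes. The WT library came from Alb-WT Bicd2fl/fl mice, which carry the same floxed alleles without Cre. Both groups were given S-100, the soluble fraction of homogenized mouse liver in complete Freund's adjuvant, at 2.5 mg into the peritoneum once a week over 3 weeks, a model of autoimmune hepatitis (AIH). The series text describes immune cells of the liver, taken by a Percoll gradient and red-cell lysis, sorted for live cells and pooled, whereas the sample labels give peritoneal cells under an HFD treatment, a conflict that the labels do not settle. The number and age of the mice were not given in the sources used here, and with 1 library per genotype no difference below has a replicate check.

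Proteins that enter the ER are folded by resident chaperones. Hspa5 (BiP) and Hsp90b1 (GRP94) bind unfolded chains, Calr and Canx hold glycoproteins through their sugars, and Pdia4 makes and rearranges disulfide bonds. When unfolded protein accumulates, the sensors IRE1, PERK and ATF6 signal to the nucleus: IRE1 splices the mRNA of the transcription factor Xbp1, and PERK raises translation of Atf4, which induces Ddit3 (CHOP). Herpud1 takes part in the degradation of misfolded ER proteins, and Sdf2l1 is a soluble ER protein that works with BiP and its J-domain partners. Plasma cells, which secrete antibody in bulk, depend on Xbp1 to enlarge their ER. A count of 3' ends cannot tell spliced from unspliced Xbp1, and RNA counts do not report how much Atf4 is translated.

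The promoters were searched for short sequence elements, none of which was found in all 10 genes. The ER stress response element (ERSE), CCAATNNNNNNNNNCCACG, was searched on both strands of the window from 250 bases before to 50 bases after each gene's start, in RefSeq promoters of build GRCm38.p6, which is not the build of the matrices. All 10 genes had a window. ERSE was found in 4 of them, Hspa5, Hsp90b1, Calr and Canx, against 0.119% of 32851 promoters, and Hsp90b1 held 2 copies. The related ERSE-II, ATTGGNCCACG, was found in Herpud1 alone among the 10, against 0.0365% of promoters. The core TGATGNAA of the element bound by Atf4 and its partners was also found in Herpud1, against 3.97% of promoters, and the core TGACGTGG bound by Xbp1 and ATF6 was in none of the 10, against 0.676%. No site overlapped another. The windows of Pdia4, Xbp1, Atf4, Ddit3 and Sdf2l1 held no exact match to these letters. Near matches, and sites outside the window, were not searched. The shares of all promoters are given for scale, and enrichment was not tested. The 250 bases upstream of the start are shown for the 5 genes with a match and for Sdf2l1, the gene with the largest differences between the libraries, with matched letters in capitals. In Calr, in the second site of Hsp90b1 and in the TGATGNAA site of Herpud1 the element lies on the opposite strand, so its letters read in reverse complement.
Hspa5 (GRCm38.p6, chr2:34771840-34772089, plus strand): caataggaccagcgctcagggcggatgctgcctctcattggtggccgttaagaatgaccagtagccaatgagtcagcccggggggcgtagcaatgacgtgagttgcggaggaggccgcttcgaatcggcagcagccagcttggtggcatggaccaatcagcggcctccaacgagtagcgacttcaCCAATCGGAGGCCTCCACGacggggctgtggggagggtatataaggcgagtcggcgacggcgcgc
Hsp90b1 (GRCm38.p6, chr10:86705445-86705694, minus strand): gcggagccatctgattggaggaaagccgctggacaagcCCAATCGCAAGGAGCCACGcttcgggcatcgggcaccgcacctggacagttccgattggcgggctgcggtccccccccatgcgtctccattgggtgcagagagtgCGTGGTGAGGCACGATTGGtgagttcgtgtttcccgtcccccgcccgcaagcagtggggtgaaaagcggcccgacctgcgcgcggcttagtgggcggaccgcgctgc
Calr (GRCm38.p6, chr8:84846932-84847181, minus strand): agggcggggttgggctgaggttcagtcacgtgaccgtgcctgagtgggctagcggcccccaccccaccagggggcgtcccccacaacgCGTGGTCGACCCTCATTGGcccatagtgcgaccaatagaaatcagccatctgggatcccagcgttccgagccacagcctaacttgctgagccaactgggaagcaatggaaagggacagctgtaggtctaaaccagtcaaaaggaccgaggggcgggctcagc
Canx (GRCm38.p6, chr11:50325674-50325923, minus strand): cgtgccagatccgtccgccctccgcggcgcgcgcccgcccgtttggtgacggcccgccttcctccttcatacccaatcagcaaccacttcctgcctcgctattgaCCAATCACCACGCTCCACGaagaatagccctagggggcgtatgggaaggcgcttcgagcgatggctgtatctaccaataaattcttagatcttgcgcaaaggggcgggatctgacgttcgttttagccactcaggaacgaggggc
Herpud1 (GRCm38.p6, chr8:94386179-94386428, plus strand): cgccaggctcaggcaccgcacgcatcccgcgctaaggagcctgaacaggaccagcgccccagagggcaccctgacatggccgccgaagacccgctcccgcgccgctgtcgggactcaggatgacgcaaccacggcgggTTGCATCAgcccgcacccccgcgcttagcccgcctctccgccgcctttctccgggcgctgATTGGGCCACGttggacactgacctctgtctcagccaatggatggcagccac
Sdf2l1 (GRCm38.p6, chr16:17132384-17132633, minus strand): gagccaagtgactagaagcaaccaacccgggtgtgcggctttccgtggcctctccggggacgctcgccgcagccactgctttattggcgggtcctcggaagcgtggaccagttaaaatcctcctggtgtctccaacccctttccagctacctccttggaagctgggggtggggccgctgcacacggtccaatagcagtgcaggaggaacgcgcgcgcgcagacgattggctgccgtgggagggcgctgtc
The ERSE nearest to a start was that of Hspa5, which spans 47 to 65 bases upstream. The others lay 89 to 107 and 194 to 212 bases upstream in Hsp90b1, 144 to 162 in Calr and 127 to 145 in Canx, and the ERSE-II of Herpud1 lay 42 to 52 bases upstream.

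After filtering, 15457 KO cells with 41671881 UMIs and 17410 WT cells with 66375920 UMIs were kept, with medians of 2009 UMIs in KO and 2775 UMIs in WT. Haemoglobin made up 22.9% of UMIs in KO and 11.1% in WT. Clusters that mixed immune and red-cell transcripts were kept out of every class, which left out 2538 KO cells (16.4%) and 279 WT cells (1.6%). In all, 70 kept barcodes occurred in both libraries. One cluster of 99 KO and 46 WT cells carried transcripts of all 10 hepatocyte markers and was given no class. Bicd2 itself was at 13.3 CPM (counts per 1e+06 UMIs of the cells concerned) in kept KO cells and 19.8 CPM in kept WT cells, which are mostly not the cells in which the albumin promoter is active. In the cluster with hepatocyte transcripts it had 4 UMIs in KO and 0 in WT, where the exact interval of a count of 0 reaches 37.2 CPM, so the deletion could not be checked. Classes named below as X-like were built from marker genes, and the 10 genes and their pathway partners were not used to cluster the cells. Intervals are at the 95% level and describe counting error alone, not variation between mice.

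Plasma-like cells stood out from the other classes. They were named from 10 of 10 markers such as Jchain, Sdc1 and Igkc, and numbered 16 in KO and 38 in WT. In both libraries they were the class with the highest level of Hspa5, Hsp90b1, Pdia4, Xbp1, Atf4, Herpud1 and Sdf2l1, although their intervals overlapped those of progenitor-like cells for Atf4 in both libraries and for Sdf2l1 in WT. Xbp1, the plasma cell regulator, was at 901 CPM in KO (interval 746 to 1079) and 1541 CPM in WT (1408 to 1683), which was 22.4-fold above B-like cells in KO and 28.4-fold in WT. Pdia4 was 13.2-fold above B-like cells in KO and 4.71-fold in WT, and Herpud1 was 16.2-fold above them in KO and 4.87-fold in WT. With immunoglobulin left out of the totals the excess of Xbp1 was 35.7-fold in KO and 57.6-fold in WT. For Atf4 the excess over B-like cells was 2.61-fold in KO and 1.38-fold in WT, and only the KO interval (1.6 to 4.07) left out equality, while the WT one (0.897 to 2.05) did not.

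The levels of the chaperones in plasma-like cells differed between the libraries, but few cells carried the KO values. Hspa5 was at 7071 CPM in KO and 970.5 CPM in WT, and Hsp90b1 was at 9476 CPM in KO and 3159 CPM in WT. A single KO cell held 33.9% of the Hspa5 UMIs of its class, and 3 KO cells held 757 of 926 (81.7%). Without the top 3 cells of each library Hspa5 was at 1651 CPM in KO and 704 CPM in WT, and Hsp90b1 at 5433 CPM in KO and 2675 CPM in WT. The median over cells, which gives each cell the same weight, was 1453 CPM in KO and 616 CPM in WT for Hspa5, and 6815 CPM in KO and 2131 CPM in WT for Hsp90b1. Cells of both libraries overlapped for each of the 10 genes. One KO cell also held 49.4% of the Herpud1 UMIs, and with the top cell of each library left out Herpud1 was at 786 CPM in KO and 398 CPM in WT. Calr was at 1214 CPM in KO and 481 CPM in WT, Canx at 283 CPM in KO and 130.2 CPM in WT, and Sdf2l1 at 374 CPM in KO and 251 CPM in WT. Without its top 3 cells of each library Sdf2l1 was at 169 CPM in KO and 193 CPM in WT, which turned the order of the libraries. Ddit3 was counted in 2 of 16 KO cells and 6 of 38 WT cells, with 11 and 6 UMIs. Those 2 KO cells, with 4 and 7 UMIs of Ddit3, were among the 3 that held 757 of 926 Hspa5 UMIs. Immunoglobulin took a median of 41.2% of the UMIs of a plasma-like cell in KO and 46.4% in WT. Because 16 KO cells are under the 30 cells set as the minimum for a ratio, the plasma levels are given side by side with no ratio of KO to WT.

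**Figure D1:**
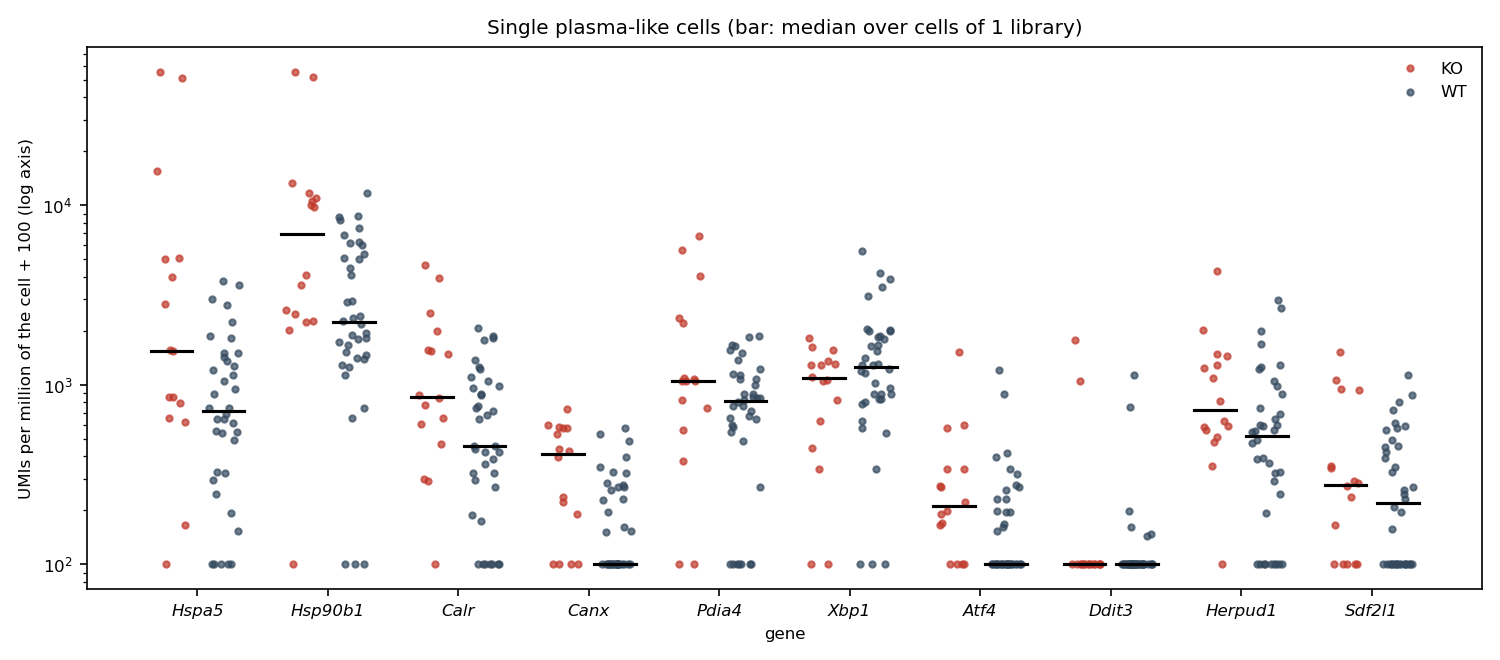
Level of the 10 genes in single plasma-like cells, as CPM of the cell plus 100 on a log axis, with KO cells on the left and WT cells on the right of each gene. The median bars of Hspa5 and Hsp90b1 lie higher in KO, that of Xbp1 lies lower, and the points of the libraries overlap for every gene.

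Outside the plasma cells the chaperones were lowest in granulocytes and red cells. Hspa5 was at 352 CPM in DC-like, 289.6 CPM in monocyte-macrophage-like, 229 CPM in T-like, 175 CPM in B-like and 142.0 CPM in neutrophil-like cells of the KO library. In the WT library it was at 473, 498, 333, 239 and 119.8 CPM in the same classes. Erythroid-like cells had 12.2 CPM in KO and 20.5 CPM in WT. Progenitor-like cells, which carry early myeloid genes such as Mpo and Elane, were at 302 CPM in KO (28 cells) and 641 CPM in WT (487 cells), and in WT they ranked just below plasma-like cells for Hspa5, Hsp90b1 and Sdf2l1 and above them for Calr and Canx. Calr, the soluble lectin chaperone, was at 381 CPM in KO and 634 CPM in WT progenitor-like cells, against 39.4 CPM in KO and 52.9 CPM in WT neutrophil-like cells. Canx, its membrane-bound counterpart, lay between 141 and 292 CPM in KO and between 130.2 and 420.5 CPM in WT, apart from the neutrophil-like and erythroid-like classes.

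The other genes had orders of their own. Hsp90b1 was second highest in plasmacytoid dendritic cells (pDC-like) in KO, at 822 CPM, and in WT came after plasma-like and progenitor-like cells, at 949.8 CPM, and in both libraries its interval overlapped that of progenitor-like cells. Xbp1 came second in pDC-like cells of both libraries, at 235 CPM in KO and 286 CPM in WT, followed in KO by progenitor-like and monocyte-macrophage-like cells, both at 209 CPM, and the KO intervals of these 3 classes overlapped from neighbour to neighbour. Herpud1 was likewise second in pDC-like cells, at 119.8 CPM in KO and 154 CPM in WT, followed by DC-like cells, at 91.6 CPM in KO and 117 CPM in WT, with overlapping intervals in KO. Pdia4 came second in B-like cells, at 132 CPM in KO and 159 CPM in WT, where its intervals overlapped those of progenitor-like cells. Sdf2l1 was at 79.8 CPM in KO and 159 CPM in WT DC-like cells, but at 9.90 CPM in KO and 23.5 CPM in WT B-like cells. Atf4 lay between 25.3 and 83.4 CPM in KO and between 36.9 and 76.0 CPM in WT from the second to the last class. The intervals of neighbouring classes overlapped throughout, but the ends differed: erythroid-like cells were at 0.393 of B-like cells in KO (0.299 to 0.514), and neutrophil-like cells at 0.527 of B-like cells in WT (0.432 to 0.647). Ddit3 had an order unlike the chaperones, with neutrophil-like cells second in KO, at 60.3 CPM, and first in WT, at 19.7 CPM, and its intervals overlapped those of plasma-like cells in both libraries.

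**Figure D2:**
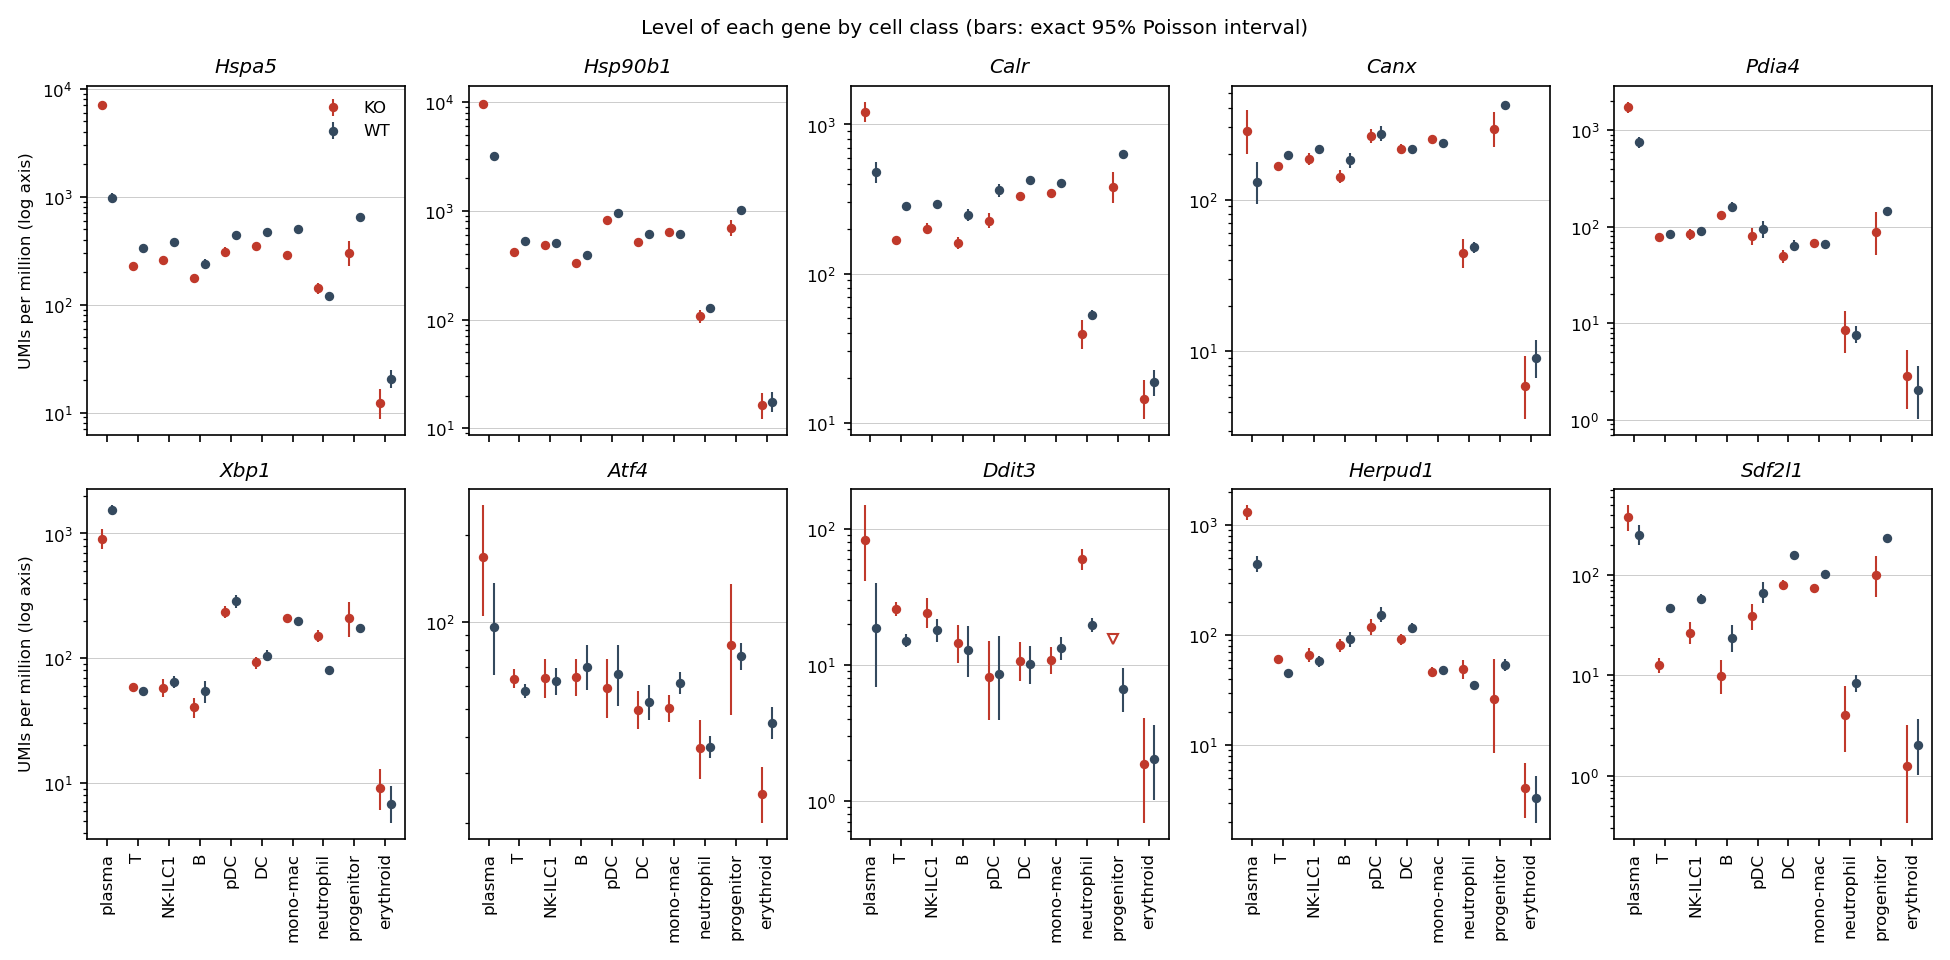
Level of each gene by cell class, in CPM on a log axis, with KO left of WT in each class and exact 95% Poisson intervals. The open triangle marks a count of 0 and is drawn at the level of 3 counts. Plasma-like cells lead for Hspa5, Hsp90b1, Pdia4, Xbp1, Atf4, Herpud1 and Sdf2l1 in both libraries, and Ddit3 is high in KO neutrophil-like cells.

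KO and WT were compared within the 8 classes that held 30 or more cells of each genotype. Sdf2l1 was at least 1.5-fold lower in KO in 6 of the 7 classes where it was counted often enough, Calr in 3 of 8 and Hspa5 in 2 of 8, and Ddit3 and Xbp1 were at least 1.5-fold higher in KO neutrophil-like cells. A gene was counted as differing where its log2 ratio of CPM plus 1, KO over WT, was past 1.5-fold in either direction, among genes with at least 20 UMIs in both libraries together. In T-like cells, 2 of 10 genes were at least 1.5-fold lower in KO, where 16.7% of all genes were, and 1 was higher, where 10.9% of all genes were. In B-like cells 2 of 10 were lower (8.51% of all genes) and none higher (6.32%). Among 9 genes counted in pDC-like cells, 2 were lower (18.1% of all genes) and none higher (5.71%). DC-like cells had 1 of 10 lower (9.62% of all genes) and none higher (6.45%).

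In NK-ILC1-like cells, a class of natural killer and type 1 innate lymphoid cells, 1 of 10 was lower (19.8% of all genes) and none higher (6.41%). Monocyte-macrophage-like cells had 1 of 10 lower (12.6% of all genes) and none higher (6.16%). Neutrophil-like cells had 1 of 10 lower (24.8% of all genes) and 2 higher (17.7%). Of 8 genes counted in erythroid-like cells, 2 were lower (18% of all genes) and none higher (18.8%). A count of 1 or 2 among 10 genes is close to these shares of all genes, and nothing is read from the counts about the list as a whole. The median log2 ratio of the counted genes was -0.16 in T-like cells against -0.02 for all genes, -0.32 in B-like cells against -0.03, and -0.29 in DC-like cells against -0.08. It was -0.29 in pDC-like cells against -0.18, -0.13 in NK-ILC1-like cells against -0.16, and -0.14 in monocyte-macrophage-like cells against -0.08. In neutrophil-like cells it was 0.06 against -0.04, and in erythroid-like cells -0.23 against 0.04. Leaving haemoglobin out of the totals moved the median of all genes to 0.06 in NK-ILC1-like, 0.01 in pDC-like, 0.09 in monocyte-macrophage-like and -0.21 in erythroid-like cells. It turned the median of the 10 genes to 0.09 in NK-ILC1-like and to 0.04 in monocyte-macrophage-like cells.

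**Figure D3:**
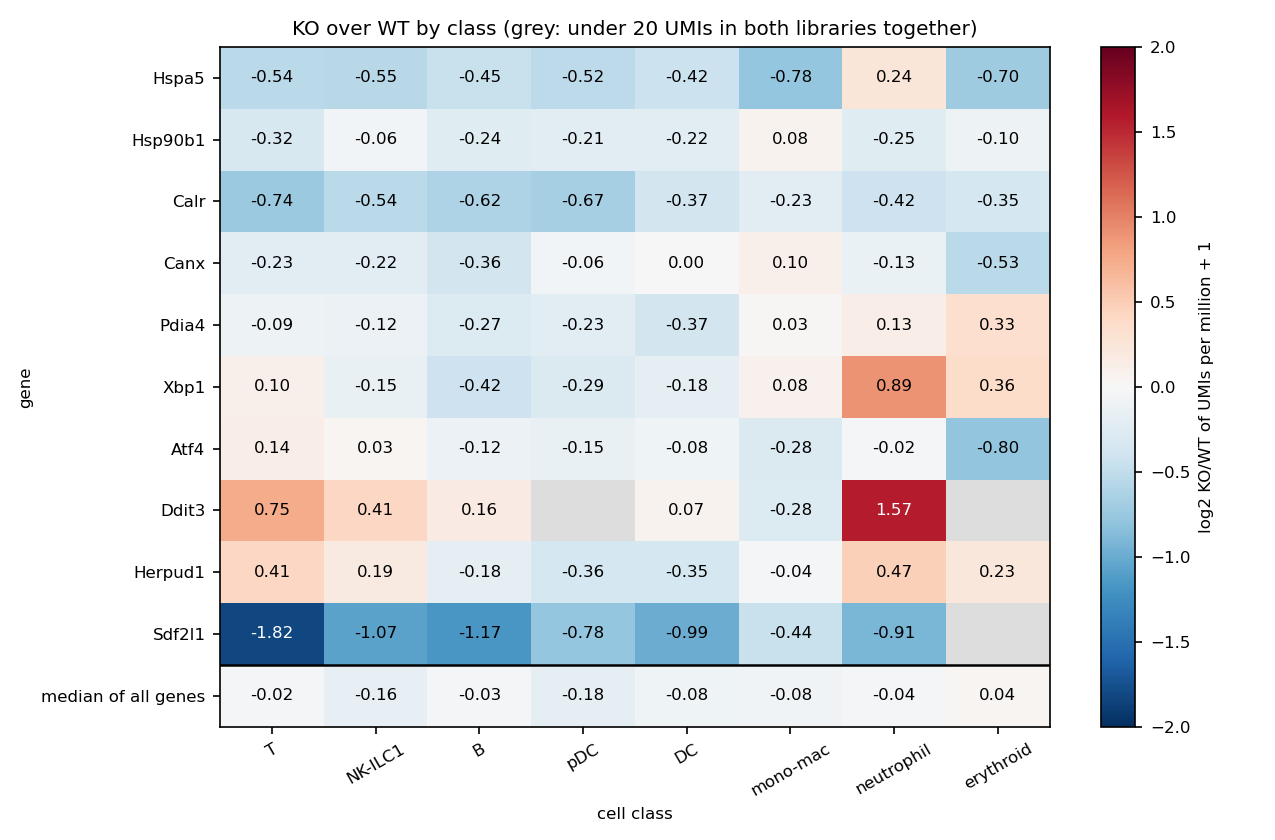
Log2 ratio of KO over WT for each gene (rows) in each of 8 cell classes (columns), with the median of all genes in the bottom row. The Sdf2l1 row is below 0 in all 7 classes in which the gene was counted, down to -1.82 in T-like cells, and Ddit3 reaches 1.57 in neutrophil-like cells.

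Sdf2l1 showed the most widespread difference of the 10 genes. In T-like cells it was at 12.6 CPM in KO (134 UMIs) and 47.2 CPM in WT (993 UMIs), a ratio of KO over WT of 0.267 (interval 0.221 to 0.320). It was at 26.7 CPM in KO and 57.2 CPM in WT NK-ILC1-like cells, a ratio of 0.466 (0.354 to 0.606). In DC-like cells, the class with the most of it in WT after plasma-like and progenitor-like cells, it was at 79.8 CPM in KO and 159 CPM in WT, a ratio of 0.501 (0.434 to 0.577). The ratio was 0.422 in B-like cells (0.252 to 0.696), 0.577 in pDC-like cells (0.390 to 0.847) and 0.478 in neutrophil-like cells, where the KO library had only 8 UMIs. Monocyte-macrophage-like cells had the mildest difference, 74.2 CPM in KO and 101 CPM in WT, a ratio of 0.734 (0.657 to 0.820). Thus 6 of the 7 classes were past 1.5-fold, and all 7 lay below 0. In cells with no cell division UMI the log2 ratio was within 1.5-fold in DC-like cells, at -0.27, and in pDC-like cells, at -0.37, and the neutrophil-like value was within 1.5-fold under 3 of 15 other settings.

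The lower level of Sdf2l1 was also seen within single clusters. Among 15 clusters that had 50 or more cells per library and 20 or more UMIs of the gene, 12 were at least 1.5-fold lower in KO, and 14 were below 0. In 3 of the 12, clusters 2, 100 and 101, the KO library had 1, 15 and 2 UMIs and the interval held equality. The T-like cluster 0, which held 3190 KO and 630 WT cells, was at 9.48 CPM in KO and 22.0 CPM in WT. In the T-like cluster 7, led by Cd8b1 and Cd8a, Sdf2l1 was at 7.74 CPM in KO and 21.6 CPM in WT, and in the T-like cluster 14, led by genes of mitosis, at 54.6 CPM in KO and 97.2 CPM in WT. In clusters 0, 7 and 14 the fold difference was smaller than in the T-like class as a whole. The makeup of that class differed, with 76 KO and 3309 WT cells in cluster 2 and 154 KO and 775 WT cells in cluster 14. The DC-like cluster 21, led by Xcr1 and Clec9a, was at 107.8 CPM in KO and 226 CPM in WT. The exception above 0 was the neutrophil-like cluster 12, at 20.2 CPM in KO (6 UMIs) and 15.1 CPM in WT (79 UMIs).

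Sdf2l1 is sparse, so its share of cells depends on depth. After thinning each cell to 1000 UMIs, a UMI of Sdf2l1 was found in 38 of 4005 KO T-like cells (0.949%, exact binomial interval 0.672 to 1.3%) and 167 of 5054 WT T-like cells (3.30%, 2.83 to 3.83%); without thinning the shares were 2.45% in KO and 11.7% in WT. No class here is known to lack these genes, so no share could serve as a background. Free RNA was estimated to add 0.00211 UMIs of Sdf2l1 to a KO cell and 0.0106 to a WT cell, against 0.0273 UMIs per KO and 0.17 per WT T-like cell. Genes of cell division differed in the same direction: all 20 on the list were at least 1.5-fold lower in KO T-like cells, where 16.7% of all genes were, with summed levels of 2045 CPM in KO and 5201 CPM in WT. T-like cells with no UMI of that list were 1360 of 4900 in KO and 685 of 5840 in WT. They held 1815257 of 10640447 UMIs in KO and 902934 of 21058122 UMIs in WT, so they were shallower than the class. Cell division and depth were thus not separated. Among these cells Sdf2l1 was at 6.06 CPM in KO and 15.5 CPM in WT, on 11 and 14 UMIs, with a ratio interval of 0.161 to 0.927. In B-like cells of the same kind it was at 10.5 CPM in KO and 7.73 CPM in WT, on 9 and 2 UMIs, which turned the direction with an interval of 0.282 to 12.97. The part of cell division in the lower Sdf2l1 of whole classes was not tested further.

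**Figure D4:**
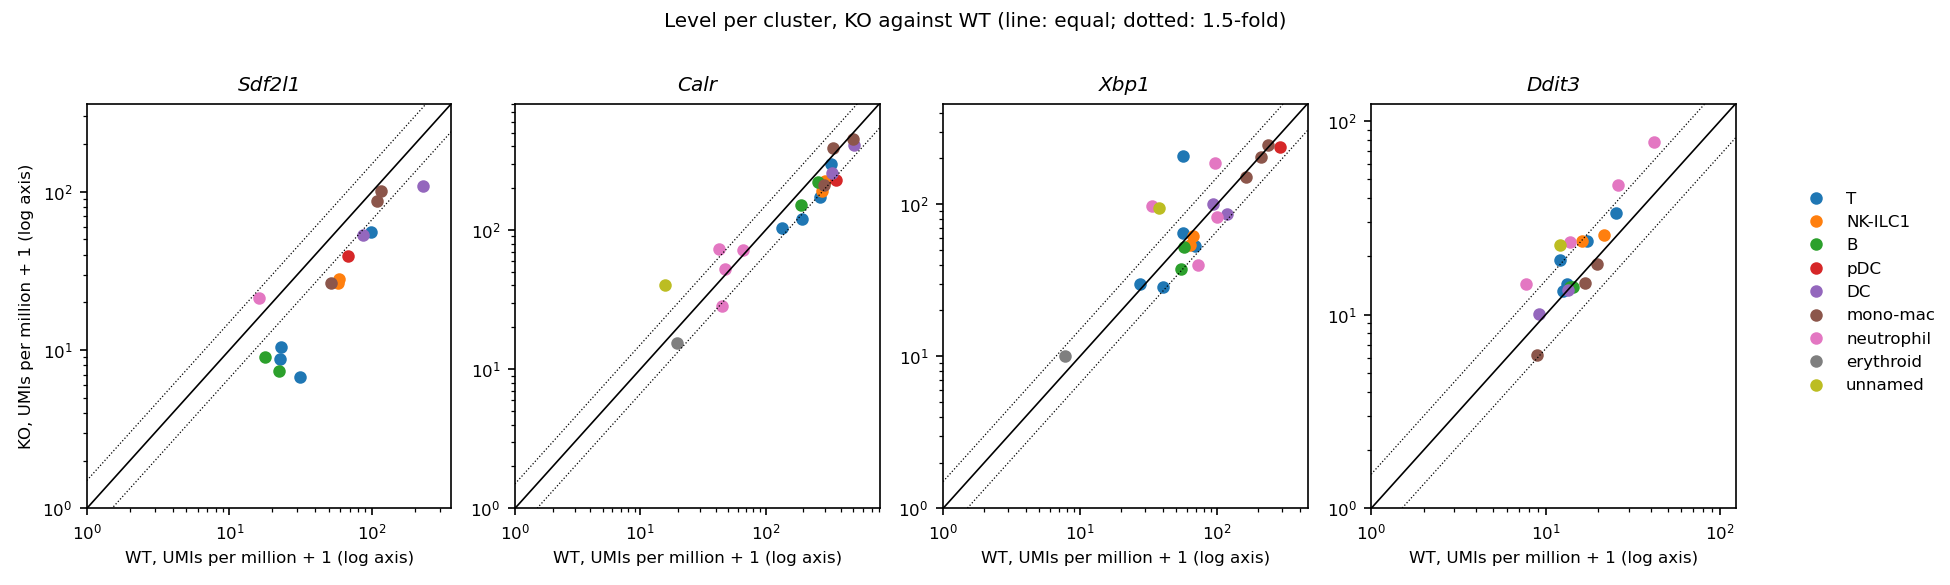
Level of Sdf2l1, Calr, Xbp1 and Ddit3 in KO (y axis) against WT (x axis) for each cluster with at least 50 cells per library and 20 UMIs of the gene, as CPM plus 1 on log axes, coloured by class; points under the line are lower in KO. For Sdf2l1, 14 of 15 clusters lie under the line.

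The lectin chaperone Calr and the BiP gene Hspa5 had log2 ratios below 0 in most classes, with fewer past 1.5-fold than for Sdf2l1. Calr was below 0 in 8 of 8 classes, although its interval in erythroid-like cells, 0.532 to 1.10, held equality. The share of all genes below 0 ran from 47.8% in erythroid-like to 67.1% in pDC-like cells. It was at 168 CPM in KO and 282 CPM in WT T-like cells (log2 ratio -0.74), at 160.2 CPM in KO and 247 CPM in WT B-like cells (-0.62), and at 227 CPM in KO and 361 CPM in WT pDC-like cells (-0.67). These were its 3 values past 1.5-fold, and the T-like one stayed past it under all 15 other settings tried, while the B-like one was within 1.5-fold under 7 and the pDC-like one under 6. Over 21 single clusters the lowest log2 ratio of Calr was -0.70, so none reached the value of the T-like class, and the median was -0.35. Calr was at least 1.5-fold lower in 4 of these clusters and higher in 2. The makeup of the T-like class differed, with 3190 KO and 630 WT cells in cluster 0 and 76 KO and 3309 WT cells in cluster 2. Hspa5 was below 0 in 7 of 8 classes, and past 1.5-fold in erythroid-like and monocyte-macrophage-like cells. In erythroid-like cells it was at 12.2 CPM in KO (39 UMIs) and 20.5 CPM in WT (111 UMIs). That log2 ratio was within 1.5-fold under 4 of 13 other settings, and turned to 0.26 with free RNA subtracted. The largest difference of Hspa5 was in monocyte-macrophage-like cells, at 289.6 CPM in KO and 498 CPM in WT, a ratio of 0.581 (0.551 to 0.613). Haemoglobin took 15.1% of the UMIs of these cells in KO and 4.24% in WT. The log2 ratio of Hspa5 was past 1.5-fold under all 15 other settings, between -0.95 and -0.61, the last with haemoglobin left out of the totals. Within the monocyte-macrophage-like cluster 6, led by Vcan and Fn1, it was at 281 CPM in KO and 488 CPM in WT, and in cluster 11, led by Ace and Cd300e, at 179 CPM in KO and 310.2 CPM in WT. In cluster 8, led by C1qa, C1qb and C1qc, it was at 446 CPM in KO and 571 CPM in WT, a log2 ratio of -0.36, within 1.5-fold. The makeup of the class differed, with 369 KO and 779 WT cells in cluster 8 and 742 KO and 348 WT cells in cluster 11. In neutrophil-like cells Hspa5 was instead slightly higher, at 142.0 CPM in KO and 119.8 CPM in WT. Neutrophil-like cells with no cell division UMI were 413 of 1504 in KO and 501 of 4332 in WT. Among them Hspa5 was at 160 CPM in KO and 196 CPM in WT. That turned the direction, with a ratio interval of 0.598 to 1.11 that held equality. The neutrophil-like class also differed in makeup between the libraries, as given below for Ddit3 and Xbp1.

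At the level of whole classes the remaining folding genes differed little. Over single clusters Hsp90b1 was at least 1.5-fold higher in KO in 3 of 21, Canx in 2 of 21 and Pdia4 in 2 of 19. Canx and Pdia4 were at least 1.5-fold lower in 1 cluster each, and Hsp90b1 in none. Clusters 14 and 19, which hold antibody-rich cells, were among the 3 of Hsp90b1. Hsp90b1 lay within 1.5-fold in all 8 classes, with log2 ratios between -0.32 in T-like and 0.08 in monocyte-macrophage-like cells. Canx, the membrane lectin, lay between -0.53 in erythroid-like and 0.10 in monocyte-macrophage-like cells. Pdia4, the disulfide isomerase, lay between -0.37 in DC-like and 0.33 in erythroid-like cells, where it had 9 UMIs in KO and 11 in WT. In monocyte-macrophage-like cells Hspa5 and Hsp90b1 differed unequally, since the interval of the Hspa5 ratio ended at 0.613 and that of the Hsp90b1 ratio began at 1.01.

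The transcription factors Ddit3 and Xbp1 were higher in KO neutrophil-like cells. Ddit3 was at 60.3 CPM in KO (121 UMIs) and 19.7 CPM in WT (255 UMIs), a ratio of 3.06 (2.44 to 3.81). Xbp1 was at 151 CPM in KO and 81.1 CPM in WT, a ratio of 1.87 (1.64 to 2.12), and stayed past 1.5-fold under all 15 other settings. The makeup of the class differed: 81 KO and 977 WT cells were in cluster 12, led by Camp and Fcnb, and 58 KO and 749 WT cells in cluster 15, led by Mmp8 and Retnlg, so most KO cells were in cluster 1. Within cluster 1, Ddit3 was at 76.8 CPM in KO and 41.0 CPM in WT, a log2 ratio of 0.89, and Xbp1 was at 186 CPM in KO and 94.8 CPM in WT, a log2 ratio of 0.97. Ddit3 was past 1.5-fold in all 4 neutrophil-like clusters, but the interval left out equality only in cluster 1. Xbp1 was not of 1 direction, at 80.8 CPM in KO and 99.6 CPM in WT in cluster 12 and at 96.7 CPM in KO and 32.3 CPM in WT in cluster 15. Of the 10 genes, 8 were counted in cluster 15, where 7 were at least 1.5-fold higher in KO (19.9% of all genes) and none lower (20.4%). Cluster 1 had 3 of 9 higher (13.7%) and 1 lower (13.9%). Cluster 12 had 1 of 10 higher (11.4%) and 3 lower (28.9%), and cluster 22 had 2 of 8 higher (7.53%) and 1 lower (45.0%). After thinning to 1000 UMIs, a UMI of Ddit3 was found in 7.04% of 795 KO cells and 2.69% of 3866 WT cells, against 7.58% in KO and 5.68% in WT without thinning. A UMI of Xbp1 was found in 13.6% of thinned KO cells and 7.60% of thinned WT cells, against 16.2% in KO and 18.0% in WT without thinning.

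Values of other gene lists moved with the neutrophil differences. Of 12 early response genes such as Fos and Jun, which can also be induced while tissue is dissociated, 6 were at least 1.5-fold higher in KO, where 17.7% of all genes were, and none lower, with summed levels of 3953 CPM in KO and 1986 CPM in WT. Of 20 cell division genes 19 were lower in KO, where 24.8% of all genes were, with 1808 CPM in KO and 3551 CPM in WT. Among neutrophil-like cells with no cell division UMI, Ddit3 was at 49.2 CPM in KO and 41.9 CPM in WT, on 19 and 30 UMIs, within 1.5-fold, whereas Xbp1 was at 163 CPM in KO and 75.5 CPM in WT. Those cells were 413 of 1504 in KO and 501 of 4332 in WT. They held 386482 of 2007129 UMIs in KO and 715400 of 12941878 UMIs in WT, so they were also shallower than the class. The part of the early response genes in these results was not tested. The 12 neutrophil markers summed to 166658 CPM in KO and 295720 CPM in WT cells of the class, with none at 0.

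In T-like cells Ddit3 was at 26.0 CPM in KO and 15.1 CPM in WT, a ratio of 1.72 (1.46 to 2.03), and its log2 ratio was within 1.5-fold under 2 of 15 other settings. Within cluster 0 it was at 32.5 CPM in KO and 24.2 CPM in WT, and the interval of that ratio, 0.966 to 1.90, held equality. The makeup of this class also differed, with 3190 KO and 630 WT cells in cluster 0, led by Il4 and Zbtb16, and 76 KO and 3309 WT cells in cluster 2, led by Cd4 and Slamf1. Atf4, which acts upstream of Ddit3, was at 63.5 CPM in KO and 57.7 CPM in WT T-like cells, a ratio of 1.10 (1.00 to 1.21), and at 36.4 CPM in KO and 36.9 CPM in WT neutrophil-like cells. Its value past 1.5-fold was in erythroid-like cells, at 25.3 CPM in KO and 44.7 CPM in WT. Herpud1, the ER degradation gene, was at 60.6 CPM in KO and 45.3 CPM in WT T-like cells (log2 ratio 0.41) and at 48.8 CPM in KO and 35.0 CPM in WT neutrophil-like cells (0.47). In DC-like and pDC-like cells it was lower in KO, with log2 ratios of -0.35 and -0.36, and no class was past 1.5-fold for it.

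A few antibody-rich cells outside the plasma-like class held many UMIs of these genes. Cells with over 10% immunoglobulin and Jchain UMIs numbered 3 among 4900 KO T-like cells and 5 among 5840 WT T-like cells. The 3 KO cells held 98 of 621 Xbp1 UMIs (15.8%) and 374 of 4480 Hsp90b1 UMIs (8.35%), while the 5 WT cells held 23 of 1148 and 95 of 11091. Without such cells the log2 ratio in T-like cells moved to -0.11 for Xbp1, against 0.10 with them, and to -0.43 for Hsp90b1, against -0.32. In the T-like cluster 14 the ratio of Xbp1 moved to 0.89, against 1.88, and that of Hsp90b1 to 0.21, against 0.69. In the unnamed cluster 19, which mixes neutrophil and red-cell genes, Hsp90b1 was at 418 CPM in KO and 35.0 CPM in WT, a log2 ratio of 3.54, and without antibody-rich cells the log2 ratio was -0.15. In T-like cells without antibody-rich cells the log2 ratio was -1.90 for Sdf2l1, against -1.82 with them, and 0.75 for Ddit3, as with them. Among 1767 KO monocyte-macrophage-like cells, 4 were antibody-rich and held 128 of 4561 Hsp90b1 UMIs. Without such cells the log2 ratio in that class was 0.040 for Hsp90b1, against 0.077, and -0.065 for Pdia4, against 0.028.

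Other genes of the ER were followed as lists. Of 26 further folding and disulfide enzymes in T-like cells, 7 were at least 1.5-fold lower in KO and 1 higher, where 16.7% and 10.9% of all genes were, with a median log2 ratio of -0.30 against -0.02 for all genes. The lowest was Selenom, an ER selenoprotein, at 1.13 CPM in KO and 13.9 CPM in WT, then Manf, a secreted ER stress factor, at 47.1 CPM in KO and 131 CPM in WT. Manf was also below 0 within all 5 T-like clusters compared, for example at 38.4 CPM in KO and 84.3 CPM in WT in cluster 0. The highest was Mzb1, a plasma and B cell ER protein, at 15.6 CPM in KO and 4.32 CPM in WT, but 149 of its 166 KO UMIs lay in cluster 14, which holds antibody-rich cells. In pDC-like cells 8 of 24 of these enzymes were lower, where 18.1% of all genes were, and none higher, led by Dnajb9, a BiP co-chaperone, at 19.7 CPM in KO and 53.5 CPM in WT, and Mzb1, at 56.6 CPM in KO and 148.0 CPM in WT. Of 26 genes of the translocon, through which new proteins enter the ER, 12 were lower in T-like cells, while pDC-like and neutrophil-like cells had 10 lower each and NK-ILC1-like cells had 9. The shares of all genes that were lower were 16.7% in T-like, 18.1% in pDC-like, 24.8% in neutrophil-like and 19.8% in NK-ILC1-like cells. One was higher in NK-ILC1-like cells and none in the other 3 classes. In T-like cells the lowest were Ssr4, at 44.0 CPM in KO and 99.1 CPM in WT, and Ostc, at 53.4 CPM in KO and 117 CPM in WT. The T-like values of Selenom, Ssr4 and Ostc are of the whole class and are not given by cluster. Its makeup differed, with 3190 KO and 630 WT cells in cluster 0 and 76 KO and 3309 WT cells in cluster 2. In B-like cells, where 8.51% of all genes were lower, none of the 26 was past 1.5-fold.

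The sensor genes Ern1 and Eif2ak3 differed in opposite directions in T-like cells. Among 8 sensor and protease genes there, 7 had log2 ratios below 0, with a median of -0.18 against -0.02 for all genes. At least 1.5-fold lower in KO was 1 and higher was 1, where 16.7% and 10.9% of all genes were. Ern1, which encodes IRE1, was lowest, at 58.7 CPM in KO and 151 CPM in WT, a log2 ratio of -1.35. Eif2ak3, which encodes PERK, was highest, at 153 CPM in KO and 69.7 CPM in WT, a log2 ratio of 1.12. Within the T-like cluster 0 Ern1 was at 75.5 CPM in KO and 234 CPM in WT, while Eif2ak3 was at 209 CPM in KO and 148 CPM in WT, within 1.5-fold. In neutrophil-like cells Atf6, the remaining sensor, was at 89.7 CPM in KO and 46.1 CPM in WT, a log2 ratio of 0.95. Within cluster 1, which held most KO cells of the class, Atf6 was at 105.01 CPM in KO and 74.0 CPM in WT, a log2 ratio of 0.50, within 1.5-fold, and in clusters 15 and 22 its log2 ratios were -0.22 and 0.26. Of 21 integrated stress response genes counted in neutrophil-like cells, 6 were higher and 3 lower in KO, where 17.7% and 24.8% of all genes were, with Cebpb highest, at 1094 CPM in KO and 445 CPM in WT, and Atf3 next, at 16.9 CPM in KO and 6.49 CPM in WT. Within cluster 1 these were at 1406 CPM in KO and 757 CPM in WT for Cebpb and at 23.9 CPM in KO and 13.8 CPM in WT for Atf3. Cebpb was lower in KO in cluster 12, at 57.3 CPM in KO and 158 CPM in WT, and in cluster 22, at 1159 CPM in KO and 1392 CPM in WT, and both intervals left out equality. In T-like cells 6 of 21 were lower, where 16.7% of all genes were, and none higher, with Asns, an Atf4 target for asparagine synthesis, at 0.188 CPM in KO (2 UMIs) and 3.89 CPM in WT (82 UMIs). The Asns values are of the whole T-like class, whose makeup differed between the libraries. Of 18 genes for ER-associated degradation, 1 was lower and none higher in T-like cells.

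Across classes and libraries the 10 genes varied together to different degrees. Over 20 points, the 10 classes in each library, the Pearson correlation of log2 levels was 0.972 between Hspa5 and Hsp90b1 and 0.954 between Calr and Sdf2l1, but 0.155 between Ddit3 and Sdf2l1 and 0.274 between Ddit3 and Atf4. Among 10346 other genes, those most like the mean of the 10 were Hyou1, an ER chaperone (0.988), Selenos (0.972), Slc35b1 (0.971), Clptm1l (0.9702), Sel1l (0.968), Pdia6, Hdlbp, Slc39a7, Spcs3 and Dnajb11 (0.963). Of these, Hyou1, Pdia6 and Dnajb11 were on the list of folding enzymes, Selenos and Sel1l on that of degradation and Spcs3 on that of the translocon. The points share their libraries and depth and depend on the same class totals, so these values are a description only.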

How the data were processed

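The 2 matrices of UMI counts deposited by the authors, 1 per library, were used as deposited. They were made with Cell Ranger 8.0.1 per the file headers, whereas build mm39, Seurat 4.3.0 and Cell Ranger 6.0.1 stand in the submitters' processing notes. The 10 genes and the gene lists were chosen with earlier results of these data known. Ddit3 has 2 identifiers in the matrices, and the second had 0 UMIs in kept cells.

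Barcodes with at least 200 genes and at most 20% mitochondrial UMIs were kept, and 2218 KO and 2757 WT doublets called by Scrublet were removed. Cells were clustered with scanpy 1.11.5 on 2000 variable genes by Leiden clustering at resolution 1. The 10 genes and their lists were left out, except that early response and cell division genes could enter. Clusters that met at least 3 plasma markers were clustered again at resolution 0.5 on 1500 variable genes, without any of the lists. Immunoglobulin constant genes and Jchain could enter in that step, which gave the B-like and plasma-like clusters. All clusters were then named from marker genes. A name needed 3 markers that were at least 2-fold higher in the cluster and found in 10% of its cells. Clusters with a median of over 10% haemoglobin stayed unnamed unless they were erythroid (75%). These naming limits were set after the data had been seen, and rebuilt names may differ from those of the study.

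UMIs were summed per library and class and given as CPM with exact Poisson intervals. Ratios of KO over WT have exact conditional binomial intervals, and log2 ratios use CPM plus 1, which understates differences of low genes. No test was made with 1 library per genotype. Free RNA was estimated from S100a8 and S100a9 in B-like cells. Scaling alternatives used edgeR 4.0.16 and DESeq2 1.42.0 factors on the counts, and 15 alternatives were tried, 3 of them chosen after seeing the data. Plasma-like levels without the top cells were also added after seeing the data. All 10 genes were named in the text. From each gene list the 2 highest and 2 lowest genes with at least 50 UMIs could be named, as could the 10 genes most like the 10 by correlation. The ratio methods were tested on simulated data.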

Additional observations from a re-analysis of the deposited data

Results flagged for a closer look

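Several genes lay on opposite sides of equality in different cell classes, with intervals that left out equality in each, and the difference between the classes was not tested. Hspa5 had a log2 ratio of KO over WT of -0.78 in monocyte-macrophage-like and 0.24 in neutrophil-like cells. The neutrophil-like value turned its direction in cells with no cell division UMI. Hsp90b1 was at -0.32 in T-like and 0.077 in monocyte-macrophage-like cells, and Canx at -0.36 in B-like and 0.10 in monocyte-macrophage-like cells. The monocyte-macrophage-like value of Hsp90b1 fell to 0.040 without antibody-rich cells. Xbp1 was at -0.42 in B-like and 0.89 in neutrophil-like cells. Atf4 was at 0.14 in T-like and -0.80 in erythroid-like cells. Herpud1 was at -0.36 in pDC-like and 0.47 in neutrophil-like cells. The largest of these spans was that of Xbp1.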

How the results depend on the processing

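Of 1139 log2 ratios of single genes over 15 alternatives, 979 kept their direction where called and stayed within their counting interval, and 158 moved outside it. In all 100 changed sign, of which 2 had been past 1.5-fold. Cells with no cell division UMI, which were fewer and shallower than their classes, gave 49 of the 158 moves, and thinning gave 20. In cells with no cell division UMI Sdf2l1 in B-like cells was at 0.40, and with free RNA subtracted Hspa5 in erythroid-like cells was at 0.26. The median of the counted genes moved to 0.093 in NK-ILC1-like cells with haemoglobin left out of the totals, alone or with haemoglobin-high clusters joined, to -0.30 in monocyte-macrophage-like cells with no cell division UMI, and to 0.92 in erythroid-like cells with free RNA subtracted, where the median of all genes was 0.91. In neutrophil-like cells it moved to 0.67 at Leiden resolution 2 and to 0.68 with haemoglobin-high clusters joined, and without antibody-rich cells, 2 in KO and 0 in WT, to 0.12 and 0.27. Sdf2l1 in T-like cells stayed between -1.93 and -1.23, Xbp1 in neutrophil-like cells between 0.83 and 1.10, and Ddit3 in neutrophil-like cells between 0.22 and 1.66. Sdf2l1 in neutrophil-like cells was within 1.5-fold under 3 of 15. Genes under 20 UMIs, and differences of the plasma-like class with 16 KO cells, were limited by counts. No paired analysis was possible because each genotype has 1 library and no result comes from a test.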
